A study of Mus musculus with 6 samples.

Results

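Cholesterol and fatty acid synthesis in NK cells lacking METTL3 was described with 37 genes, chosen by symbol for their roles in the pathways. They were 18 enzymes of sterol synthesis and 9 genes of fatty acid synthesis, desaturation and elongation. With them were 5 genes of the SREBP transcription factors and their regulation (called SREBP regulators in the figures), 4 of cholesterol efflux and oxysterol sensing, and the sterol carrier Stard4. Of the 37 genes, 36 were among the 14490 genes of the deposited table and all 36 passed the filter on low values. Fads2 was not analysed here. The samples were splenic NK cells of C57BL/6 mice, 3 from Mettl3fl/fl (WT) mice and 3 from Ncr1Cre-Mettl3fl/fl (cKO) mice, profiled by mRNA-seq of polyA RNA, with no treatment named in the labels. Both genotypes carry the floxed Mettl3 alleles, and only cKO mice carry the Cre allele, which is expressed from the Ncr1 locus in NK cells, so the Cre allele itself and the loss of METTL3 cannot be told apart in this comparison. The study used mice between 6 and 10 weeks of age. The comparison asks which transcripts differ when METTL3, the catalytic subunit of the m6A RNA methyltransferase, is deleted in NK cells. The labels do not say whether the samples came from separate mice, so p-values measure the spread between these samples.

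Cells make cholesterol from acetyl-CoA through mevalonate, farnesyl diphosphate and squalene, and fatty acids from the same precursor through malonyl-CoA. Transcription of both pathways is driven by the SREBP factors, which are held in the endoplasmic reticulum by INSIG proteins and escorted to the Golgi for cleavage by SCAP when sterols are low. Liver X receptors sense oxysterols and turn on cholesterol efflux pumps and Srebf1. In NK cells, SREBP activity has been linked to the metabolic response to cytokines.

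Values are normalized counts, the reads of a gene divided by the size factor of the sample, and each sample had between 55965515 and 71464042 reads on the listed genes. Mettl3 itself, as a check of the labels, was at 1303, 1258 and 1192 normalized counts in WT samples 1 to 3 and at 297, 299 and 405 in cKO samples 1 to 3, a log2 fold change of −1.92 (standard error, SE, 0.0986 and adjusted p = 2.32e-14 by limma). All 10 NK cell markers examined were present, with a summed level of 951767 to 985784 in WT and 906530 to 949445 in cKO, and by limma 6 of them were lower and 2 higher. Ncr1, the locus that carries the Cre allele, had a log2 fold change of −0.41 (adjusted p = 3.56e-11 by limma) and Nkg7 one of −0.34 (adjusted p = 1.03e-08 by limma). These were the largest falls of the NK cell markers, both larger in size than those of Srebf1 and Srebf2 given below. Tbx21 and Il2rb were the 2 higher markers (0.235 and 0.139, limma adjusted p = 5.47e-07 and 0.000797). Eomes and Gzmb were not called. Markers of other cells also moved with the genotype. Summed B cell markers were at 1302 to 1347 in WT and at 1800 to 1855 in cKO, with 6 of 7 higher at a limma adjusted p under 0.05. Summed markers of cycling cells, most of whose counts came from Pcna, were at 44584 to 44754 in WT and 53329 to 55935 in cKO. Of these markers 8 of 9 were higher. Summed myeloid markers, most of whose counts came from Itgax, which NK cells also express, were at 48608 to 51579 in WT and 51628 to 53282 in cKO, with 5 of 8 measured markers higher and 1 lower. Of the 7 measured T cell markers 1 was lower, and of 5 erythroid markers none differed (0 by limma, 1 at an unadjusted p under 0.05). No measured marker was at 0 in any sample. Their part in the results below was not tested, and in such bulk samples a difference in the kinds of cells and a difference in the RNA of each cell cannot be told apart.

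Sterol and fatty acid genes moved in both directions in cKO NK cells, by small amounts. Both SREBP genes fell by about the same degree. Of the 7 sterol enzymes up to farnesyl diphosphate (57.1% called), Acat2, Hmgcs1 and Mvk fell, Idi1 rose and 3 were not called. Of the 11 later enzymes (36.4% called, beside 36.6% of all genes), Lss, Ebp, Sc5d and Dhcr7 rose and 7 were not called. This split was made after the values were seen. The calls of Mvk and Ebp were lost in most fits that left out 1 sample. By limma, 21 of the 36 genes passed an adjusted p of 0.05, of which 10 rose and 11 fell in cKO. This is 58.3% against 36.6% of all genes tested (17.8% higher and 18.8% lower). Fewer of the rises than of the falls kept their call in every setting tried, as given at the end. When every sample was set to the same total, called equal totals here, 11 rose and 9 fell, where all genes went from 48.5% to 63.4% of calls upward. Abundance goes with the share of calls: among genes with a mean of at least 1000 normalized counts, 52.6% of all genes and 15 of 19 of these genes were called, and below that level 21.9% of all genes and 6 of 17 of these genes. The median log2 fold change of the 36 genes was −0.059, and that of all genes was 0.001. The study's cutoffs for differential expression, an unadjusted p under 0.05 and a log2 fold change over 1 in size, were applied to the limma values. By limma, 0 of the 36 genes and 1.75% of all genes passed them. The study applied its cutoffs to DESeq2 results, which were not used here. The ranges of the genotypes were apart in 25 of the 36 genes, against 45.7% of all genes. For a single gene with 3 samples against 3, the smallest two-sided p of an exact permutation test is 0.1.

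**Figure D1:**
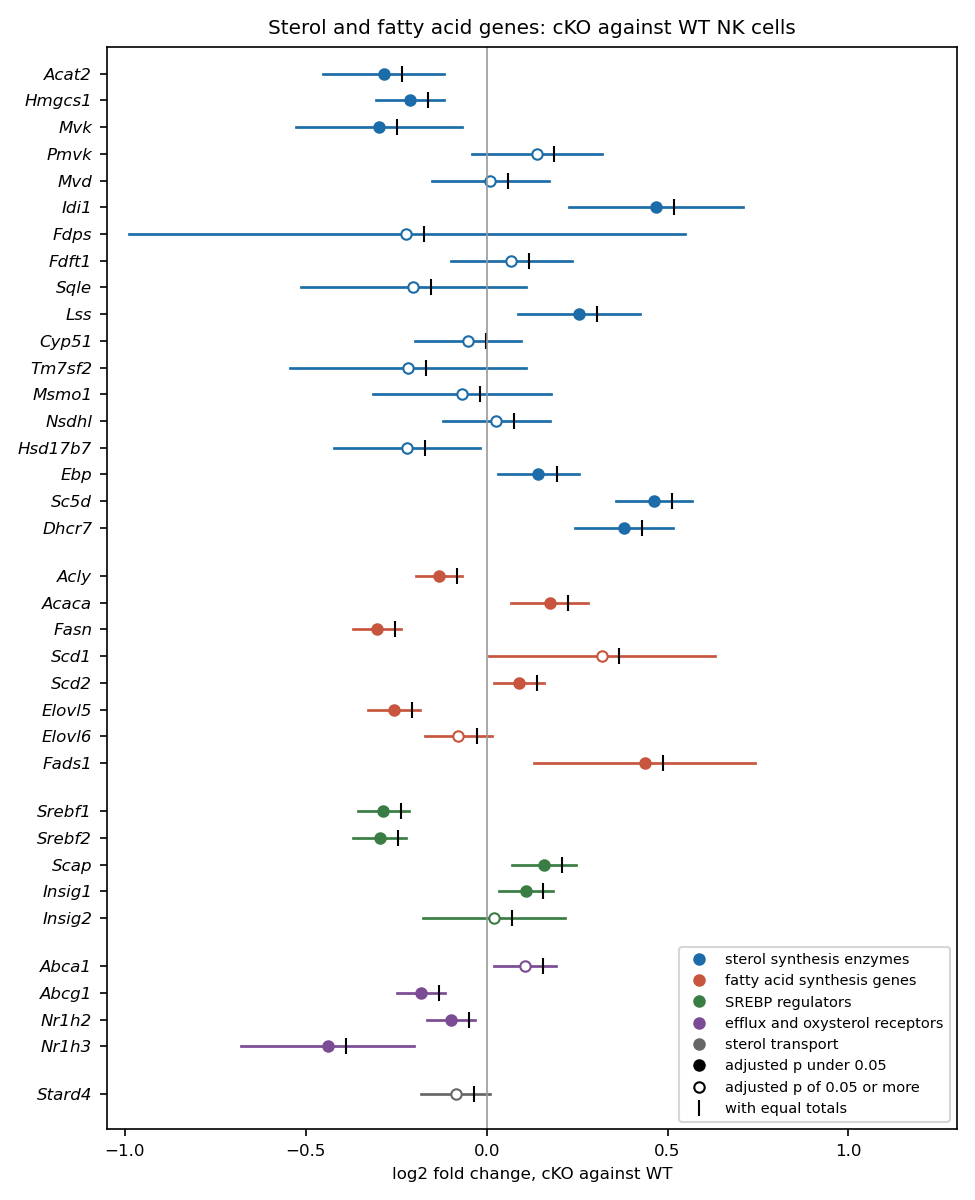
Log2 fold changes of the 36 measured genes in cKO against WT (x axis), ordered by role and, for sterol synthesis enzymes, by step of the pathway, with 95% confidence intervals from limma as horizontal bars (3 samples per genotype). Filled points have an adjusted p under 0.05 and vertical ticks mark the value with the samples scaled to equal totals. Srebf1 and Srebf2 lie at −0.286 and −0.295, while Sc5d and Idi1 lie at 0.46 and 0.47.

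The genes that encode the SREBP factors were lower in cKO. Srebf1, whose products favour fatty acid genes, was at 12372, 12094 and 13054 normalized counts in WT and at 10453, 10046 and 10258 in cKO. Every cKO sample lay below every WT sample, and the log2 fold change was −0.29 (SE 0.0345 and adjusted p = 2.32e-07 by limma), a change of −18.0%. Srebf2, the main activator of cholesterol synthesis, was at 6489, 6359 and 6382 in WT and at 5278, 5168 and 5225 in cKO. Its groups were also apart, with a log2 fold change of −0.295 (SE 0.0358 and adjusted p = 2.51e-07 by limma) and a change of −18.5%. Both falls kept their call with equal totals, at −0.24 and −0.25.

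The partners that control SREBP processing did not follow the 2 factors down. Scap, the escort of SREBP, was at 3489, 3719 and 3564 in WT and at 4148, 4039 and 3839 in cKO, all 3 cKO values above WT, with a log2 fold change of 0.16 (SE 0.0427 and adjusted p = 0.00436 by limma). Of its exon bases, 13.2% overlap those of the neighbouring 5830462I19Rik. Insig1, a sterol-dependent anchor of SCAP and itself an SREBP target, was at 8719, 8594 and 8175 in WT and at 8805, 9254 and 9405 in cKO. Its lowest cKO value stood just above the highest WT value, and the log2 fold change was 0.11 (SE 0.0362 and adjusted p = 0.0207 by limma). This call was lost without WT sample 3, cKO sample 2 or cKO sample 3, with an adjusted p of up to 0.125. Insig2, the paralog with the same role, was at 504, 460 and 564 in WT and at 493, 503 and 551 in cKO. The groups overlapped, and the 95% confidence interval of its log2 fold change ran from −0.18 to 0.22.

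**Figure D2:**
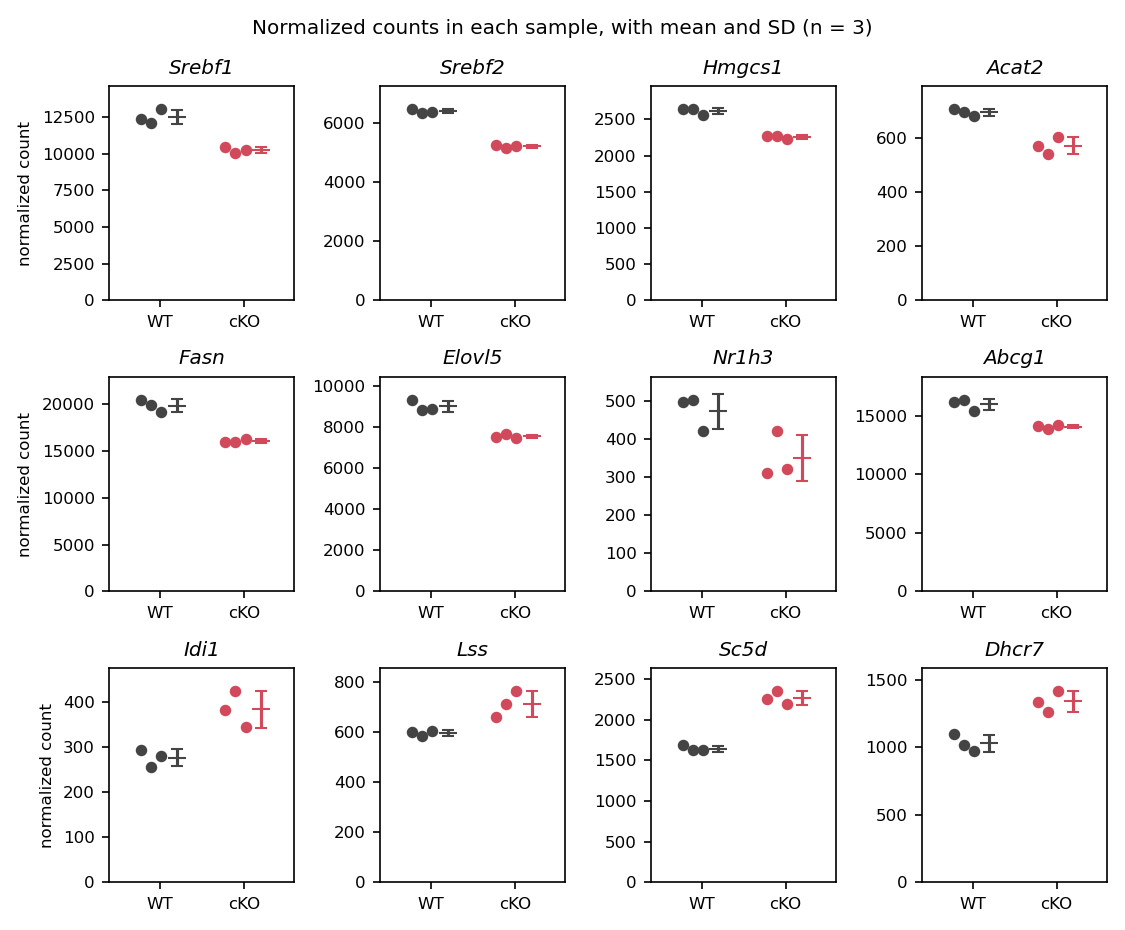
Normalized counts (y axis, from 0) of 12 genes in each WT (grey) and cKO (red) sample, with the mean and SD of 3 samples beside the points. Of the 12 genes, Nr1h3 is the one whose groups meet, at 421 in WT sample 3 and cKO sample 2. The 12 genes are a selection from the 21 called genes. The ranges of the genotypes were apart in 25 of the 36 genes and in 45.7% of all genes.

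Among the sterol synthesis enzymes, 8 of 18 were called, 5 higher and 3 lower, and their median log2 fold change was −0.020. Their summed level was 14084 to 14826 normalized counts in WT and 14878 to 15322 in cKO. In normalized counts, the largest rises in this sum were those of Sc5d, Dhcr7 and Ebp, and the largest fall was that of Hmgcs1. That share, 44.4%, stands beside 36.6% of all genes. The split by position in the pathway was made after the values were seen. Of the 7 enzymes up to farnesyl diphosphate, 3 were lower and 1 higher (57.1% called), with a median of −0.212 and a summed level of 5256 to 5703 in WT and 4997 to 5242 in cKO. Of the 11 enzymes from squalene synthase on, 4 were higher and none was lower (0 by limma, with Hsd17b7 the 1 gene with a negative change at an unadjusted p under 0.05). That share, 36.4%, was close to the 36.6% of all genes. The median of these enzymes was 0.026, with a summed level of 8617 to 9123 in WT and 9862 to 10162 in cKO. The rise of this sum came mostly from Sc5d, Dhcr7 and Ebp.

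Early in the pathway, Acat2, the cytosolic thiolase that joins acetyl-CoA units, was at 706, 696 and 681 in WT and at 569, 540 and 602 in cKO. All cKO values were below WT, with a log2 fold change of −0.285 (SE 0.0814 and adjusted p = 0.00692 by limma). Because 40.7% of the 75-base stretches of its longest transcript also occur in the paralog Acat3, its counts are uncertain. Hmgcs1, which makes HMG-CoA, was at 2643, 2641 and 2563 in WT and at 2268, 2274 and 2231 in cKO, a log2 fold change of −0.21 (SE 0.0455 and adjusted p = 0.000543 by limma), with the groups apart. Of the exon bases of Hmgcs1, 12.1% overlap those of Gm48342. Mvk, mevalonate kinase, was at 409, 434 and 345 in WT and at 318, 323 and 322 in cKO. WT samples spread more widely than cKO samples here, and the log2 fold change of −0.30 (SE 0.112 and adjusted p = 0.0382 by limma) lost its call with equal totals (adjusted p = 0.0816), in limma-voom, and in 5 of the 6 fits that left out 1 sample.

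Of the enzymes after mevalonate kinase up to farnesyl diphosphate, none was called lower. Pmvk, the next kinase, had a log2 fold change of 0.14 (adjusted p = 0.235 by limma), and Mvd, the decarboxylase that follows, one of 0.010 (adjusted p = 0.936 by limma). Idi1, which isomerizes isopentenyl diphosphate, was at 293, 256 and 280 in WT and at 381, 424 and 344 in cKO, all cKO values above WT. Its log2 fold change of 0.47 (SE 0.117 and adjusted p = 0.00238 by limma) was the highest of the 36 genes, at low counts, and 29.1% of the 75-base stretches of its longest transcript occur in other genes, among them Gm13502. Fdps, farnesyl diphosphate synthase, was listed at only 23 to 35 normalized counts in WT and 21 to 34 in cKO, and 26.7% of its exon bases overlap Gm43738. At this level a difference was not detectable, since the 95% confidence interval of its log2 fold change ran from −0.99 to 0.55.

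In the sterol arm from squalene synthase on, 4 of 11 enzymes were called (36.4%, beside 36.6% of all genes), all higher in cKO. This arm was set apart after the values were seen. Lss, which closes squalene epoxide into lanosterol, was at 599, 583 and 603 in WT and at 658, 713 and 763 in cKO, with the groups apart and a log2 fold change of 0.255 (SE 0.0819 and adjusted p = 0.0156 by limma). Without cKO sample 3 this call was lost (adjusted p = 0.0999). Sc5d, the sterol C5-desaturase, was at 1683, 1620 and 1623 in WT and at 2255, 2351 and 2187 in cKO. The lowest cKO sample lay far above the highest WT sample, and the log2 fold change of 0.46 (SE 0.0508 and adjusted p = 4.9e-08 by limma) had the lowest adjusted p of the sterol enzymes. Dhcr7, which carries out the last reduction to cholesterol, was at 1096, 1018 and 973 in WT and at 1338, 1261 and 1416 in cKO, a log2 fold change of 0.38 (SE 0.0656 and adjusted p = 4.46e-05 by limma), again with the groups apart. Ebp, the sterol isomerase before them, rose by less, with a log2 fold change of 0.14 (adjusted p = 0.0419 by limma), and lost its call in limma-voom and in 5 of the 6 fits that left out 1 sample.

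For the other enzymes of this arm no difference was called. Fdft1 (squalene synthase), Sqle (squalene epoxidase), Cyp51 (lanosterol demethylase), Tm7sf2 (a sterol reductase), Msmo1 (methylsterol monooxygenase), Nsdhl (a sterol dehydrogenase) and Hsd17b7 (a sterol ketoreductase) had log2 fold changes from −0.22 for Hsd17b7 to 0.068 for Fdft1. Hsd17b7 had a limma adjusted p of 0.0815 and Tm7sf2 one of 0.307, both with all cKO values below WT. The intervals of Sqle and Tm7sf2 were wide, reaching −0.51 and −0.54, while that of Cyp51, from −0.20 to 0.095, was narrower. Fdft1 shares 18.3% of its exon bases with Ctsb.

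Short promoter sequences of the measured genes, called or not, were examined because the SREBP factors bind 2 kinds of site, a sterol regulatory element and an E-box, and work with NF-Y, which binds CCAAT. RefSeq windows of 250 bases before to 50 after the start site (GRCm38.p6) were matched for 28 of the 36 genes, all but Fdps, Fdft1, Sqle, Scd1, Scd2, Fads1, Abcg1 and Stard4. The letters TCACNCCAC, searched on both strands as a form of the sterol regulatory element, were found in 1 of the 28 genes, Hmgcs1, and in 1.44% of all 27025 genes with such windows. These 27025 genes include genes that were not among those tested here. A gene with several start sites was counted if any of its windows held the letters. CCAAT was found on either strand in 14 of 15 sterol synthesis enzymes, in 3 of 5 fatty acid genes and in 41.1% of all genes with such windows. CCAAT was present in genes that rose and fell alike, 6 of 8 higher, 7 of 10 lower and 8 of 10 genes without a call. The E-box CACGTG, which reads the same on both strands, was found in 7 of the 28 genes and in 8.09% of all genes with such windows. Among genes that were higher it was in 4 of 8 (Sc5d, Dhcr7, Scap and Insig1), among lower genes in 1 of 10 (Elovl5), and among genes without a call in 2 of 10 (Hsd17b7 and Abca1). A match of letters is a description and not a bound site. The windows of 30 bases below are on the strand of the gene, with the letters searched in capitals (ATTGG is CCAAT on the opposite strand). They show the 1 sterol regulatory element match, a CCAAT match beside the start site in a lower and in 3 higher sterol enzymes, and the E-box of each called gene that held one.
Hmgcs1, sterol regulatory element, chr13:119690204-119690233, plus strand: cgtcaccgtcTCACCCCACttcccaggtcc
Hmgcs1, CCAAT, chr13:119690294-119690323, plus strand: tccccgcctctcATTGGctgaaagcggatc
Idi1, CCAAT, chr13:8885549-8885578, plus strand: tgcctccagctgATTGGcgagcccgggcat
Lss, CCAAT, chr10:76531531-76531560, plus strand: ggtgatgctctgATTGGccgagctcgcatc
Sc5d, CCAAT, chr9:42264307-42264336, minus strand: cgccggctgctgATTGGccggctgcctgca
Sc5d, E-box, chr9:42264381-42264410, minus strand: ctacgcggcgacCACGTGaccgccgcgacc
Dhcr7, E-box, chr7:143823223-143823252, plus strand: cgctgtgatgaaCACGTGgcaaaaagcagc
Scap, E-box, chr9:110333304-110333333, plus strand: cgccgccgggagCACGTGtggagggcggcg
Insig1, E-box, chr5:28071299-28071328, plus strand: gctgggtgaggtCACGTGgctccggtggca
Elovl5, E-box, chr9:77917192-77917221, plus strand: actgccccgagaCACGTGaaccacaggaga

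Of the 8 measured fatty acid genes 6 were called, 3 higher and 3 lower, a share of 75% beside 36.6% of all genes. These genes were more abundant, with a median of 5606 normalized counts against 642.7 for the sterol enzymes and 879.5 for all genes, and among genes with at least 1000 normalized counts 5 of 6 fatty acid genes and 4 of 5 sterol enzymes were called. Their median log2 fold change was 0.005, against −0.020 for the sterol enzymes, and the difference between the 2 lists was not tested. Summed over the genes, fatty acid genes were at 62251 to 65559 normalized counts in WT and at 57313 to 58568 in cKO, sums made up mostly of Fasn, Acly, Scd2 and Elovl5.

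Of the called fatty acid genes, Fasn, Acly and Elovl5 fell, while Acaca, Scd2 and Fads1, given below, rose. The falls kept their calls in every setting tried, and each of the rises lost its call in some setting. Fasn, fatty acid synthase, was at 20468, 19956 and 19153 in WT and at 15979, 15962 and 16312 in cKO. All cKO samples were well below WT, with a log2 fold change of −0.30 (SE 0.0319 and adjusted p = 2.28e-08 by limma). Acly, which releases acetyl-CoA from citrate for both pathways, had a mean of 17836 ± 425 normalized counts in WT (SD, n = 3) and of 16286 ± 217 in cKO (SD, n = 3), a log2 fold change of −0.13 (adjusted p = 0.00146 by limma). Elovl5, an elongase of polyunsaturated fatty acids, was at 9303, 8822 and 8858 in WT and at 7503, 7629 and 7465 in cKO, without overlap, a log2 fold change of −0.26 (SE 0.0346 and adjusted p = 1.42e-06 by limma). Elovl6, which elongates palmitate, had a log2 fold change of −0.078 (adjusted p = 0.187 by limma).

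Desaturases and acetyl-CoA carboxylase lay on the other side. Fads1, the delta-5 desaturase, was at 202, 230 and 156 in WT and at 247, 292 and 250 in cKO, all cKO values above WT but WT widely spread, with a log2 fold change of 0.44 (SE 0.149 and adjusted p = 0.0228 by limma). This call was lost without WT sample 3 or cKO sample 2 (adjusted p of up to 0.155). Acaca, which makes malonyl-CoA, went from 1854 ± 64.0 (SD, n = 3) to 2092 ± 84.7 (SD, n = 3), a log2 fold change of 0.17 (adjusted p = 0.00896 by limma), a call lost without cKO sample 3. Of the 75-base stretches of its longest transcript 47.4% occur in Gm5182, so that its counts are uncertain. Scd2, the abundant stearoyl-CoA desaturase of these cells, rose by 0.089 on the log2 scale (adjusted p = 0.0394 by limma), a call lost in 4 of the 6 fits that left out 1 sample. Scd1, its close relative, was at 162, 152 and 156 in WT and at 178, 204 and 206 in cKO, and its log2 fold change of 0.32 did not pass the test (adjusted p = 0.105 by limma).

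**Figure D3:**
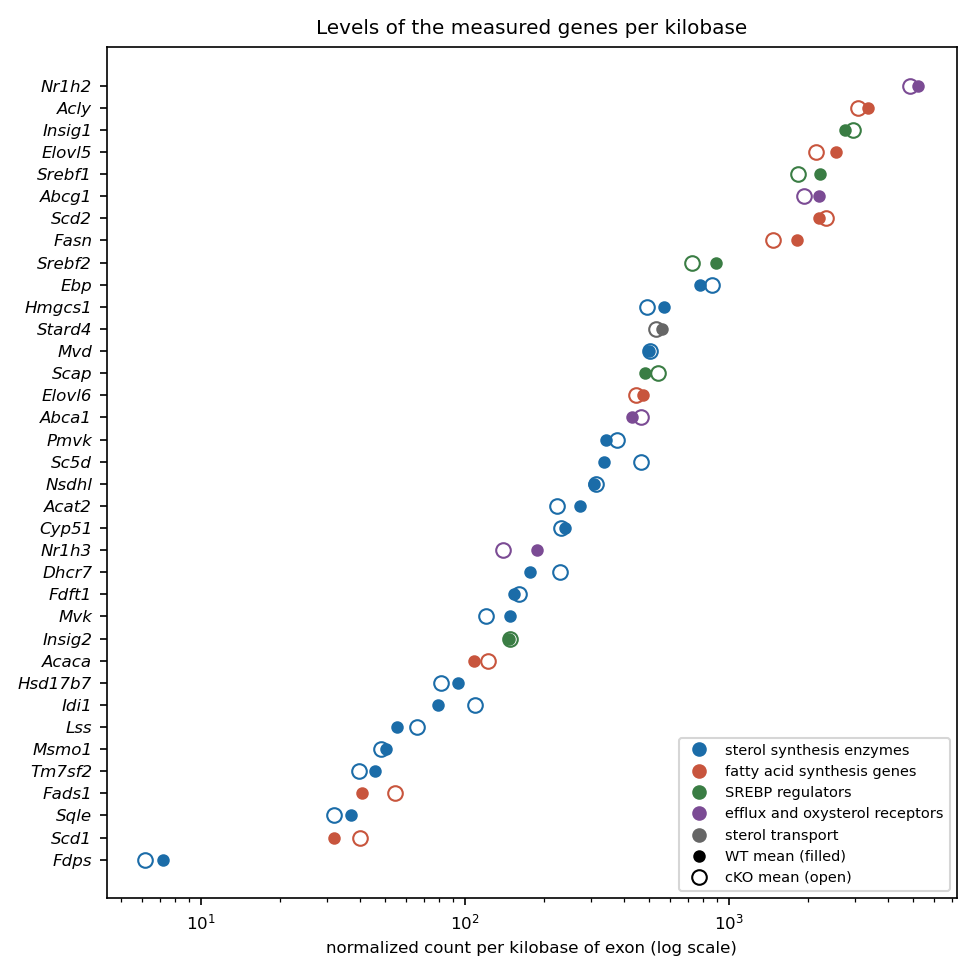
Mean normalized counts per kilobase of annotated exon (x axis, log scale) of the 36 measured genes in WT (filled) and cKO (open), coloured by role. Nr1h2 is highest at 5222 in WT and Fdps lowest at 7.18, and for each gene the distance between genotypes is small beside the distance between genes.

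On the scale of normalized counts per kilobase of exon, the genes of each role covered a wide range in WT NK cells. Nr1h2 was at 5222, Acly at 3379, Insig1 at 2747, Elovl5 at 2554, Srebf1 at 2220 and Fasn at 1814, while Insig2 was at 146.7, Acaca at 108.6 and Fads1 at 40.7. The highest sterol enzyme was Ebp with 780.9, followed by Hmgcs1 with 569.3 and Mvd with 497.3. Stearoyl-CoA desaturase was mostly Scd2, at 2187 against 32.0 for Scd1. The length used was that of all exons annotated for a gene.

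Cholesterol efflux and its sensors differed in part. Nr1h3, which encodes the liver X receptor LXRα, was at 497, 503 and 421 in WT and at 310, 421 and 322 in cKO. The groups met at 421, and the log2 fold change of −0.44 (SE 0.117 and adjusted p = 0.00392 by limma) was the lowest of the 36 genes. Nr1h2, which encodes LXRβ and was far more abundant, had a log2 fold change of −0.099 (adjusted p = 0.0181 by limma), which was not called with equal totals (adjusted p = 0.244) or without WT sample 3. Abcg1, an efflux pump that loads cholesterol onto HDL, went from 15981 ± 479 (SD, n = 3) to 14083 ± 151 (SD, n = 3), a log2 fold change of −0.18 (adjusted p = 5.38e-05 by limma). Abca1, the pump that loads lipid-poor apolipoprotein, had a log2 fold change of 0.105 with all cKO values above WT (adjusted p = 0.0512 by limma), and was called higher with equal totals (adjusted p = 0.00658). Stard4, which carries cholesterol between membranes, had a log2 fold change of −0.086 (adjusted p = 0.154 by limma). Nr1h3 and Abca1 are also expressed by macrophages. Of the 8 measured myeloid markers, 5 were higher in cKO, among them Adgre1 (log2 fold change 0.25, adjusted p = 0.00475 by limma). Lyz2 was the 1 lower marker (−0.40, adjusted p = 8.87e-06 by limma). The part of myeloid cells in these values was not tested.

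Outside these genes, a wider list of 51 genes of sterol handling, fatty acid elongation, activation, storage and oxidation was examined, of which 47 were measured. By limma 7 were higher and 14 lower, a share of 44.7% beside 36.6% of all genes, with a median log2 fold change of −0.037. With equal totals 11 were higher and 11 lower. Dgat1, which completes triglyceride synthesis, was the only one with a log2 fold change of at least 0.5 in size and an adjusted p under 0.05. It was at 5567, 5650 and 6223 in WT and at 8429, 8097 and 8348 in cKO, well apart, with a log2 fold change of 0.51 (SE 0.0400 and adjusted p = 9.22e-11 by limma).

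**Figure D4:**
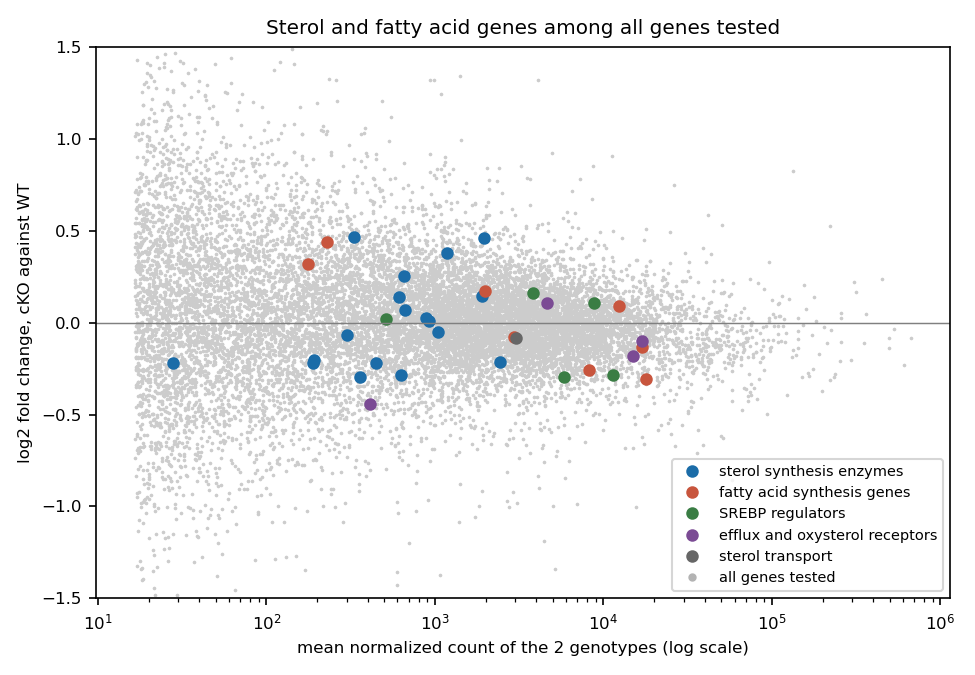
Log2 fold change (y axis) against the mean normalized count of the genotypes (x axis, log scale) for all 14490 genes (grey) and the 36 measured genes by role (coloured). The 36 genes lie between −0.44 and 0.47, inside the cloud of all genes at their abundance, and 48 of all genes lie outside the y axis.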

How the data were processed

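Genotypes and replicate numbers came from the sample labels. NK cells were sorted from spleen, and their read pairs were placed on GRCm38 by the authors with Hisat2, then counted per gene by featureCounts. The strand setting and the treatment of reads with several matches are not given in the sources used here. For each sample the authors deposited a signal per gene, which is its count over the DESeq2 size factor of that sample. The deposited table also holds the authors' mean, fold change and test, which were not used. Values were taken as log2(value + 1), which lessens the fold changes of low genes. A gene needed 1 normalized count or more in 3 samples or more, and every gene passed. Genotype was fitted in limma 3.58.1 (R 4.3.3), letting the variance follow abundance. Tests were two-sided, and p-values of the 14490 genes were adjusted together by the Benjamini-Hochberg method. The steps were tested on simulated data. In every sample 100% of the values were whole multiples of 1 step within 0.1 of a read, which gives the reads per sample. Counting error is thus small for abundant genes and larger for genes such as Fdps.

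Genes and lists were chosen with earlier results of these data known. Values in every sample are given for genes with an adjusted p under 0.05 and a log2 fold change of at least 0.25 in size. They are also given for the SREBP genes and their regulators. A result that the naming rule also covered is not reported here. Genes of the wider list are named at a size of at least 0.5. Values of other genes were chosen after they were seen. Positions, exon lengths and shared 75-base stretches came from GENCODE vM21 (GRCm38), in which each of the 37 genes matched 1 gene. Of the symbols in the table, 19 were spreadsheet dates and 1 occurred a second time.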

Additional observations from a re-analysis of the deposited data

How the results depend on the processing

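The count of called genes among the 36 was 21 and lay between 19 and 22 with the filter raised to 1 CPM in 3 samples, a pseudocount of 0.1, equal totals, the replicate number as a block and limma-voom on the recovered reads, a setting chosen after seeing the data. Dropping the filter could change nothing, because every gene had passed it. With 1 sample left out it lay from 16 to 19. Of the 21 called genes 13 kept call and direction in all of these settings. The 8 that lost the call in some setting were Mvk, Lss, Ebp, Acaca, Scd2, Fads1, Insig1 and Nr1h2, and the cause was not tested. Of these 8, Mvk and Nr1h2 were lower in cKO and the others higher. Among the rises, only Idi1, Sc5d, Dhcr7 and Scap kept the call throughout. Without WT sample 3, cKO sample 2 or cKO sample 3, the called fatty acid genes were 1 higher and 3 lower. Equal totals moved the median log2 fold change of the sterol enzymes from −0.020 to 0.029 and that of the fatty acid genes from 0.005 to 0.055, since this scaling moves the median of all genes from 0.001 to 0.051. With 1 sample left out the sterol median lay from −0.068 to 0.015. The replicate number as a block gave 22 called genes and lost no call. Same-numbered samples did not deviate together, with correlations of −0.040, 0.056 and 0.038. The planned count tests (edgeR and DESeq2) were not run, and limma-voom was the only model fitted to the recovered reads. With 3 samples per genotype, small changes of genes at low counts, such as Fdps, could not be detected.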

Other observations

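The genes here were chosen after their values were seen. Acadl, Acadvl and Hadhb, which act on fatty acyl-CoA in mitochondria, had log2 fold changes of −0.32, −0.23 and −0.22 (limma adjusted p = 5.21e-06, 0.00012 and 7.23e-05), while Cpt2, the inner membrane carnitine palmitoyltransferase, had one of 0.41 (adjusted p = 0.0186 by limma). Of the other genes of fatty acid oxidation in the wider list, Acadm, Hadha and Cpt1a had log2 fold changes of 0.023, −0.041 and 0.037 and were not called (adjusted p = 0.797, 0.408 and 0.454 by limma). Slc25a1, the mitochondrial citrate carrier that feeds Acly, had a log2 fold change of −0.33 (adjusted p = 8.32e-05 by limma). Soat2, an enzyme that esterifies cholesterol, had one of −0.38 (adjusted p = 9.57e-08 by limma), whereas Osbp, an oxysterol-binding lipid transporter, and Erlin2, a membrane protein of the endoplasmic reticulum, had 0.29 and 0.36 (limma adjusted p = 1.16e-05 and 4.29e-05).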
